A study of Mus musculus with 80 samples.

Results

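Genes of cholesterol and fatty acid synthesis were followed as mouse embryonic stem cells (ESCs) left serum for 2i, a serum-free medium. The set holds 30 members, taken by symbol from the expression table of 25965 rows. 29 were found under the listed symbol, and Msmo1 stands in the table under its older symbol Sc4mol. RNA-seq covered 12 libraries of the wild-type ESC line E14, a single line, with 3 replicates each in serum and after 6, 24 and 72 h in 2i. The serum cultures grew with fetal calf serum and the cytokine LIF. The 2i cultures grew in N2B27 with LIF and 2 inhibitors, PD0325901 against MEK and CHIR99021 against GSK3, so that loss of serum lipids and gain of the inhibitors came together and cannot be told apart. The series holds 80 samples in all, and beside RNA-seq only the ChIP-seq of dimethylated lysine 9 of histone H3 (H3K9me2) is used below. It was made from E14 in serum, after 24 h in 2i and in LT2i, the long-term 2i culture.

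Animal cells build cholesterol from acetyl-CoA. The mevalonate arm turns acetyl-CoA into farnesyl pyrophosphate, squalene is then formed and closed into lanosterol, and a chain of sterol enzymes trims lanosterol to cholesterol. Most of these enzymes, with those that make and desaturate fatty acids, are known targets of the SREBP transcription factors, which are held in the endoplasmic reticulum when membrane sterol is plentiful and released when it is scarce. Serum brings lipoproteins and fatty acids, and cells in serum-free medium depend more on their own synthesis.

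Values were log2 expression per gene, corrected by the authors for gene length and library depth. No source read here names the lengths they used, and any order of levels between genes rests on them. Library totals are not known from these values. A gene counted as tested when its value was 0 or more in at least 3 of the 12 libraries, and all 30 members were among the 12306 genes tested. A gene was called when its limma p, adjusted by the Benjamini-Hochberg method over all genes tested, was under 0.05. Errors of fitted changes are standard errors, which for RNA come from a spread per gene shared by all 12 libraries. Errors of group means are standard deviations with n = 3. Pearson correlations between replicate libraries over the tested genes were 0.988 or more in serum and at 6 h, but reached down to 0.947 at 24 h, where replicate 3 stood apart, and 0.963 at 72 h. The means of all 8 ESC markers lay above those of every marker of the other cell types named here. Their summed linear level was 1070 to 1203 in serum, 972 to 1084 at 6 h and 1365 to 1735 at 72 h. At 72 h 4 of the 8 rose and 2 fell (Dppa4 by 0.78 and Zfp42 by 0.67), beside 25.7% of all tested genes higher and 26.5% lower. The 8 markers of primitive endoderm summed to 5.74 to 6.01 in serum and 3.86 to 4.75 at 72 h, and the 8 of fibroblast feeder cells to 7.89 to 9.92 and 4.58 to 5.03. In serum the median of 5 of the 8 endoderm markers and 6 of the 8 feeder markers was below 0 on the log2 scale. Among the feeder markers the mean serum levels of Lum and Dcn were -5.44 and -4.96, but those of Col1a1 and Thy1 were 2.49 and 0.87. The sums of both lists were lower at 72 h, when most members were higher. The markers did not all move one way, since of the 4 tested endoderm markers Dab2 and Cubn fell at 72 h (by 1.08 and 3.75) while Gata4 rose (0.92), and Cubn passed the filter on low values only through serum and Gata4 only through 72 h, where each is high. All Sox17 libraries at 72 h, not tested, lay above serum. Both tested feeder markers, Col1a1 and Thy1, fell. The part of these markers in the results was not tested. In bulk libraries fewer cells of a type and less RNA per cell cannot be told apart.

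Most of the members were higher in 2i. At 6 h 12 of the 30 rose and 0 fell, beside 15.6% of all tested genes called (9.13% higher and 6.48% lower). The fitted change was above 0 for all 30, and an unadjusted limma p was under 0.05 for 19, all higher, beside 15.3% of all tested genes higher and 11.4% lower. With the replicate number as a block 14 rose (12.2% of all tested genes higher), and with only the serum and 6 h libraries fitted 19 rose (16% higher). At 24 h 25 rose and 3 fell, beside 63.3% of all tested genes called (34.2% higher and 29.1% lower). At 72 h 25 rose and 1 fell, beside 52.2% of all tested genes (25.7% higher and 26.5% lower). On the log2 scale the 3 median changes of the members were 0.39, 1.07 and 1.13 in order of time, against 0.01, 0.11 and -0.01 over all tested genes. Called rises of 2-fold or more numbered 3, 16 and 17 of the 30 at the 3 times, beside 3%, 15.1% and 11.4% of all tested genes. Libraries of 25 members lay wholly above serum at 6 h, of 24 at 24 h and of 26 at 72 h, beside 24.1%, 34.4% and 31.3% of all tested genes. Those of 0, 3 and 2 lay wholly below, beside 20.3%, 30.3% and 32.3%. The 3 comparisons share the serum libraries. Without 24 h replicate 3 the calls at 24 h numbered 27, of which 24 were higher, beside 71.8% of all tested genes called and 39.7% higher.

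**Figure D1:**
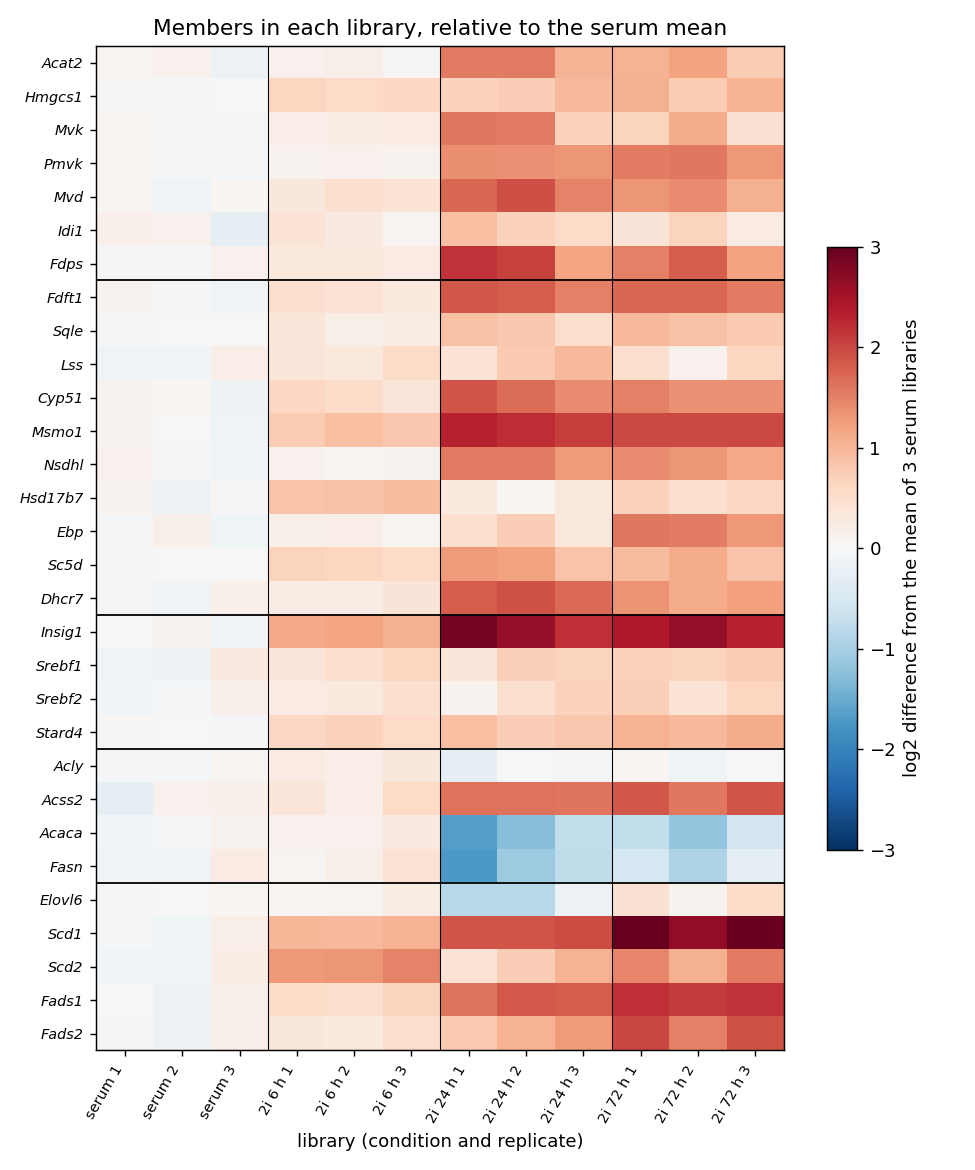
Difference of each member from the mean of the 3 serum libraries, on the log2 scale (color), for the 12 libraries (columns, condition and replicate) and 30 members (rows, with lines between the role groups from the mevalonate arm at the top to elongation and desaturation at the bottom). Most sterol genes are red in all 24 h and 72 h libraries, while Acaca and Fasn are blue there.

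The 7 members of the mevalonate arm were mostly called after 6 h. At 6 h 1 of the 7 rose, and all 7 were higher at 24 h and at 72 h, with changes of 0.72 to 1.80 and 0.44 to 1.51, beside 9.13%, 34.2% and 25.7% of all tested genes higher at the 3 times. With only the serum and 6 h libraries fitted, Mvd and Fdps passed at 6 h too (adjusted p = 0.00638 and 0.0193), beside 16% of all tested genes higher. Hmgcs1, which makes HMG-CoA and is the early exception in the main fit (chr13:119690462-119708086), stood at 5.68, 5.61 and 5.62 in serum, at 6.27, 6.23 and 6.25 at 6 h, at 6.33, 6.38 and 6.61 at 24 h and at 6.70, 6.39 and 6.69 at 72 h. All 9 libraries in 2i lay above the 3 in serum. The 6 h rise was 0.62 ± 0.12 (adjusted p = 0.00381), and most of the total rise of 0.96 ± 0.12 at 72 h was present by then. Fdps, which makes farnesyl pyrophosphate, stood at 5.15, 5.16 and 5.34 in serum, at 5.53, 5.53 and 5.47 at 6 h, at 7.37, 7.26 and 6.41 at 24 h and at 6.72, 7.03 and 6.43 at 72 h. At 6 h its change of 0.29 ± 0.23 did not pass (adjusted p = 0.5). At 24 h it was 1.80 ± 0.23 (adjusted p = 5.52e-05, a 3.48-fold rise), with replicate 3 well below replicates 1 and 2. The standard deviation of Fdps was 0.11 in serum, 0.04 at 6 h and 0.53 at 24 h, so the shared error at 6 h takes in the wider spread at 24 h.

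The 3 steps that phosphorylate mevalonate and remove its carboxyl group are encoded by Mvk, Pmvk and Mvd. Pmvk rose by 1.37 ± 0.09 at 24 h and 1.47 ± 0.09 at 72 h, after 0.11 ± 0.09 at 6 h, which did not pass. Mvd stood at 3.51, 3.31 and 3.51 in serum and at 5.17, 5.38 and 4.93 at 24 h, so that the groups were far apart. At 6 h its change of 0.42 ± 0.13 missed the threshold (adjusted p = 0.0594), and with the replicate number as a block it passed (adjusted p = 0.0378), as it did without 24 h replicate 2, 24 h replicate 3 or 72 h replicate 3 (adjusted p from 0.0241 to 0.0474). The whole of Mvd lies within Gm20388, a gene on the opposite strand that stood at 3.60 in serum and 4.86 at 72 h, and the library kit does not keep strand, so their reads cannot be told apart. Mvk rose by 1.27 ± 0.23 at 24 h and 0.74 ± 0.23 at 72 h (adjusted p = 0.0161), and the latter was lost without 72 h replicate 2 (0.55, adjusted p = 0.0685).

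Acat2, the cytosolic thiolase that opens the arm, rose by 1.37 ± 0.16 at 24 h and 1.01 ± 0.16 at 72 h, and its near-identical neighbour Acat3 stood at 2.79 in serum and 3.79 at 72 h, so the split of reads between the pair is uncertain. Idi1, which isomerises isopentenyl pyrophosphate, had the smallest rise of the arm at 24 h, 0.72 ± 0.16 (0.40 with a trend of the change with gene span removed, adjusted p = 0.0113), and at 72 h, 0.44 ± 0.16 (adjusted p = 0.0342). The latter call was lost without serum replicate 3, 72 h replicate 1 or 72 h replicate 2 (0.30 to 0.46, adjusted p from 0.0648 to 0.146), and with only the serum and 72 h libraries fitted (adjusted p = 0.0516).

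Of the 10 members between squalene and cholesterol, 5 were higher after 6 h and 9 at each later time, with median changes of 0.41, 1.29 and 1.26, beside the same shares of all tested genes. Msmo1 (chr8:64718139-64733792), the methylsterol oxidase, stood at 2.48, 2.40 and 2.25 in serum, at 3.15, 3.29 and 3.18 at 6 h, at 4.68, 4.59 and 4.45 at 24 h and at 4.36, 4.35 and 4.35 at 72 h. No library of one time overlapped with serum, and the 24 h and 72 h libraries lay close to each other. Its rise of 2.20 ± 0.10 at 24 h (adjusted p = 3.88e-08, a 4.59-fold rise) was second among the 30 at that time, after Insig1. Fdft1, the squalene synthase that commits the pathway to sterols, rose by 1.73 ± 0.12 at 24 h and 1.66 ± 0.12 at 72 h. Its 6 h call at 0.41 ± 0.12 (adjusted p = 0.0352) was lost without any 1 of the serum or 6 h libraries, or without 72 h replicate 1 (adjusted p from 0.0534 to 0.137). Fdft1 shares 767 bp with Ctsb, a gene on the opposite strand that stood at 2.44 in serum and 4.62 at 72 h.

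Cyp51, the lanosterol demethylase, stood at 3.21, 3.17 and 2.97 in serum, at 3.73, 3.67 and 3.48 at 6 h and at 5.00, 4.79 and 4.53 at 24 h. The groups did not overlap, but the 6 h call (0.51 ± 0.13, adjusted p = 0.0215) was lost without serum replicate 2 or 3 or 6 h replicate 1 or 2 (adjusted p from 0.0559 to 0.0927). Nsdhl, a sterol dehydrogenase, was at 0.10 ± 0.11 at 6 h, not past the threshold, and rose by 1.46 ± 0.11 at 24 h and 1.30 ± 0.11 at 72 h. Dhcr7, the reductase of the last step, likewise was at 0.28 ± 0.11 at 6 h (adjusted p = 0.116) and rose by 1.81 ± 0.11 at 24 h and 1.22 ± 0.11 at 72 h. Sc5d, a sterol desaturase, already rose by 0.63 ± 0.12 at 6 h, and by 1.11 ± 0.12 and 0.98 ± 0.12 at the later times. Sqle, the squalene epoxidase, rose by 0.74 ± 0.11 at 24 h and 0.88 ± 0.11 at 72 h.

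The other 3 members of this group were Hsd17b7, Ebp and Lss. Hsd17b7, a sterol ketoreductase, stood at 1.24, 0.99 and 1.17 in serum, at 1.99, 2.00 and 2.07 at 6 h, at 1.42, 1.20 and 1.46 at 24 h and at 1.82, 1.63 and 1.76 at 72 h. It was thus highest at 6 h, overlapped with serum at 24 h and lay above serum again at 72 h. The changes were 0.89 ± 0.11 (adjusted p = 0.000265), 0.23 ± 0.11 (adjusted p = 0.102) and 0.61 ± 0.11 (adjusted p = 0.000944). Ebp, the sterol isomerase, was higher at 72 h than at 24 h. Its values were 2.34, 2.52 and 2.24 in serum, 2.87, 3.11 and 2.67 at 24 h and 3.94, 3.90 and 3.67 at 72 h, and the 72 h change was 1.47 ± 0.13 against 0.52 ± 0.13 at 24 h, and the latter call was lost with a trend of the change with gene span removed (0.23, adjusted p = 0.0784). Lss, which closes squalene epoxide into lanosterol, rose by 0.73 ± 0.17 at 24 h and was at 0.42 ± 0.17 at 72 h (adjusted p = 0.0581), a change that passed without serum replicate 3, 24 h replicate 1, 24 h replicate 3 or 72 h replicate 2 (adjusted p from 0.0214 to 0.0478). With the replicate block its 6 h change of 0.41 ± 0.17 passed too (adjusted p = 0.0362 in place of 0.144).

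**Figure D2:**
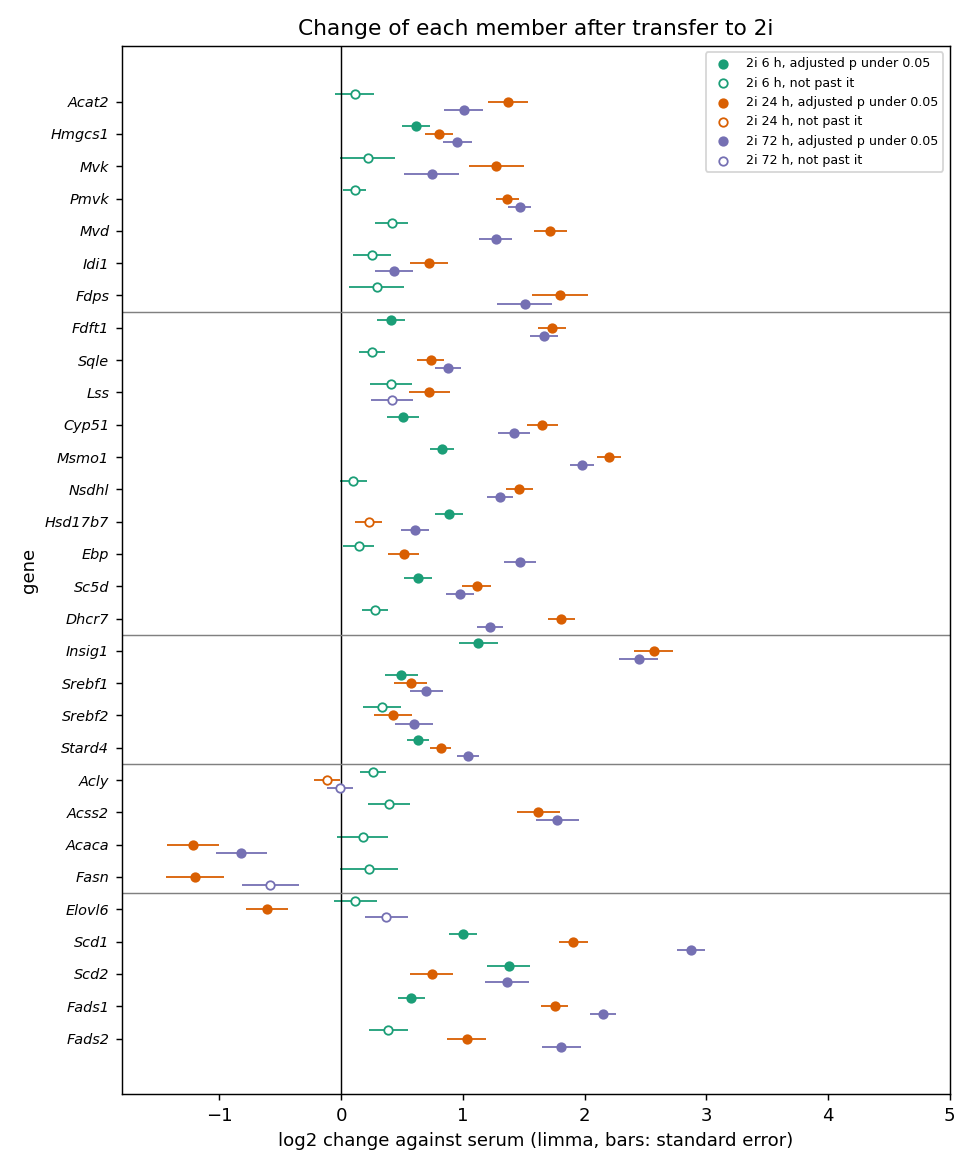
Fitted log2 change against serum (x axis) of each member (y axis, in the order of the role groups) at 6, 24 and 72 h in 2i, with standard errors as bars; filled points passed an adjusted p of 0.05. The sterol genes lie to the right of 0 at all 3 times, Acaca and Fasn to the left at 24 h and 72 h, and Scd1 reaches the largest change, 2.88 at 72 h.

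Of the 4 regulator and transport genes, 3 rose at 6 h and all 4 at 24 h and 72 h, beside 9.13%, 34.2% and 25.7% of all tested genes, and Insig1 had the largest changes. It encodes the sterol-responsive protein that keeps the SREBP complex in the endoplasmic reticulum. At chr5:28071363-28078662 (GRCm38), its values were 3.81, 3.88 and 3.67 in serum, 4.93, 4.96 and 4.85 at 6 h, 6.65, 6.43 and 5.98 at 24 h and 6.19, 6.42 and 6.08 at 72 h. Every library in 2i lay above every serum library, and the 24 h and 72 h values overlapped. The rise was 1.13 ± 0.16 at 6 h (adjusted p = 0.000508, 2.19-fold), 2.57 ± 0.16 at 24 h (5.93-fold) and 2.45 ± 0.16 at 72 h (5.45-fold). Stard4, a carrier of sterols between membranes, rose by 0.63 ± 0.09 at 6 h and 1.04 ± 0.09 at 72 h.

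The genes of the SREBP factors themselves had smaller fitted changes. Srebf1 stood at 2.86, 2.84 and 3.25 in serum and at 3.67, 3.64 and 3.74 at 72 h, a rise of 0.70 ± 0.14. Its 6 h call (0.50 ± 0.14, adjusted p = 0.0299) was lost without serum replicate 1 or 2 or 6 h replicate 2 or 3 (adjusted p from 0.0885 to 0.128). Srebf2 stood at 4.91, 4.92 and 5.14 in serum, at 5.09, 5.48 and 5.68 at 24 h and at 5.71, 5.41 and 5.65 at 72 h. It overlapped with serum at 24 h and lay above it at 72 h, where the rise was 0.60 ± 0.15 (adjusted p = 0.00708). The 24 h call (0.43 ± 0.15, adjusted p = 0.0313) was lost under quantile normalization (adjusted p = 0.181), with only the 2 groups fitted (adjusted p = 0.0788) and without serum replicate 1 or 2 or 24 h replicate 2 or 3 (0.29 to 0.39, adjusted p from 0.0869 to 0.0946). It was kept with the replicate block (adjusted p = 0.011) and with the gene span trend removed, where the change was 0.68 (adjusted p = 0.000379).

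**Figure D3:**
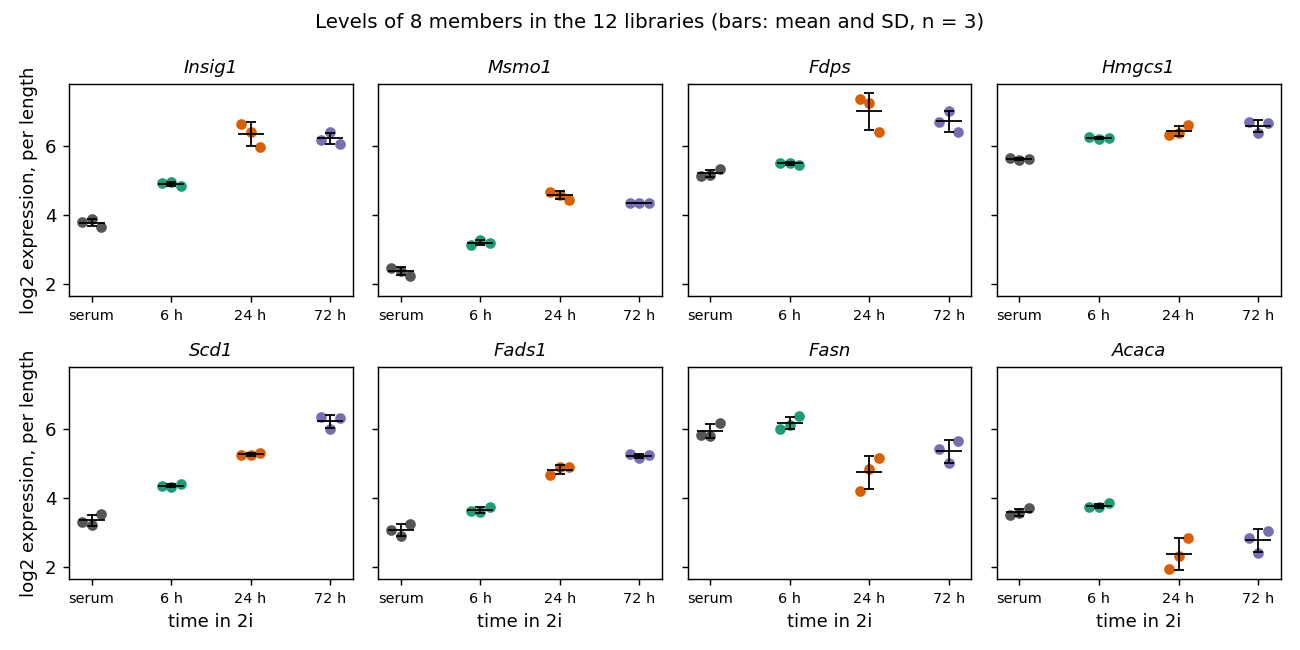
Log2 expression per length (y axis) of 8 members in serum and after 6, 24 and 72 h in 2i (x axis), with a point per library and the mean and standard deviation (n = 3) as bars. Insig1, Msmo1, Fdps, Hmgcs1, Scd1 and Fads1 climb from serum, while Fasn and Acaca drop at 24 h.

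Among the genes of acetyl-CoA supply and of fatty acid synthesis, 1 of the 4 was higher and 2 were lower at 24 h, and 1 was higher and 1 lower at 72 h, beside 34.2% higher and 29.1% lower, then 25.7% and 26.5%, of all tested genes. These shares are near the background. At 6 h no call was made among the 4 (limma), while 2 had an unadjusted p under 0.05, both with changes above 0. Fasn (chr11:120805940-120824178), which builds palmitate, stood at 5.84, 5.81 and 6.19 in serum, at 6.03, 6.13 and 6.38 at 6 h, at 4.22, 4.85 and 5.18 at 24 h and at 5.42, 5.02 and 5.67 at 72 h. Every 24 h and 72 h library lay below every serum library. The gene fell by 1.20 at 24 h (SE 0.24, adjusted p = 0.00119, 2.29-fold lower). At 72 h its change of -0.58 ± 0.24 missed the threshold (adjusted p = 0.0599), and it passed without 24 h replicate 1, 24 h replicate 3 or 72 h replicate 3 (-0.73 to -0.58, adjusted p from 0.0206 to 0.0336), and with only the serum and 72 h libraries fitted (adjusted p = 0.0316).

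Acaca, the acetyl-CoA carboxylase that makes the malonyl-CoA used by Fasn, stood at 3.52, 3.56 and 3.71 in serum, at 3.74, 3.73 and 3.86 at 6 h, at 1.95, 2.33 and 2.86 at 24 h and at 2.86, 2.42 and 3.06 at 72 h. Both later groups lay wholly below serum. It fell by 1.22 at 24 h (SE 0.21, adjusted p = 0.000488) and by 0.82 at 72 h (SE 0.21, adjusted p = 0.00689). Changes at 24 h followed gene span over all genes, and Acaca spans 271980 bp (percentile 98.5 of the tested genes). With that trend removed the 24 h change of Acaca was -0.70 (adjusted p = 0.000192), while that of Fasn, which spans 18239 bp, was -1.33. The span is that of the gene, and the length of the transcript was not read. In both genes the 24 h values climbed from replicate 1 to replicate 3, and the source of this spread was not tested.

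Acly and Acss2 supply cytosolic acetyl-CoA. Acly, which splits citrate, had the highest mean of the 30 in serum, 6.28 ± 0.07, and was at -0.12 ± 0.11 at 24 h and -0.01 ± 0.11 at 72 h, neither past the threshold. Acss2, which makes acetyl-CoA from acetate, had the lowest, with -1.29, -0.88 and -0.86 in serum, and stood at 0.62, 0.61 and 0.60 at 24 h and at 0.85, 0.57 and 0.88 at 72 h. All libraries of both later times lay above all in serum, and the rise was 1.62 ± 0.17 at 24 h and 1.78 ± 0.17 at 72 h (adjusted p = 7.85e-06). Acss2 was below 0 in all serum and 6 h libraries and passed the filter only through the 24 h and 72 h libraries, the one member that did, and the calls were kept with no filter. Of the Acss2 span 33.3% overlaps Gss on the opposite strand, which stood at 1.45 in serum and 3.83 at 72 h, so reads of the pair cannot be told apart there.

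The 4 desaturase genes were higher than in serum at 24 h and at 72 h, beside 34.2% and 25.7% of all tested genes. Scd1 and Scd2 introduce the first double bond into saturated fatty acids. Scd1 (chr19:44394451-44407709) stood at 3.31, 3.24 and 3.55 in serum, at 4.36, 4.33 and 4.41 at 6 h, at 5.26, 5.25 and 5.31 at 24 h and at 6.37, 6.03 and 6.33 at 72 h. The 4 groups did not overlap, and each later group lay above the one before it. Its rise of 2.88 ± 0.12 at 72 h (adjusted p = 9.23e-09, 7.34-fold) was the largest among the 30 members. Scd2 followed another course, with 5.65, 5.60 and 5.96 in serum, 7.04, 7.07 and 7.23 at 6 h, 6.18, 6.48 and 6.78 at 24 h and 7.21, 6.80 and 7.28 at 72 h. Its 24 h libraries lay below those of 6 h and 72 h, and its 6 h rise of 1.38 ± 0.18 (adjusted p = 0.000286, 2.60-fold) was the largest at that time. The 24 h rise of 0.74 ± 0.18 was lost under quantile normalization (0.54, adjusted p = 0.107). Reads of Scd1 and Scd2, close paralogs that both lie on chromosome 19, may be split unevenly.

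Fads1 and Fads2 desaturate polyunsaturated fatty acids. Fads1 stood at 3.08, 2.92 and 3.24 in serum, at 3.63, 3.60 and 3.75 at 6 h, at 4.68, 4.91 and 4.91 at 24 h and at 5.28, 5.18 and 5.24 at 72 h. The groups again did not overlap, and the rise at 72 h was 2.15 ± 0.11 (adjusted p = 4.81e-08, 4.45-fold). Fads2 stood at 3.55, 3.43 and 3.76 in serum and at 5.58, 5.10 and 5.48 at 72 h, a rise of 1.81 ± 0.16. Elovl6, which lengthens palmitate, was the exception. It stood at 4.75, 4.80 and 4.86 in serum, at 3.98, 3.98 and 4.63 at 24 h and at 5.26, 4.92 and 5.34 at 72 h. Below serum at 24 h and above it at 72 h, it fell by 0.61 (SE 0.17, adjusted p = 0.00986) and was then at 0.37 ± 0.17 (adjusted p = 0.0913). The span of Elovl6, 106110 bp, exceeds that of most tested genes (percentile 91), and with the span trend removed the 24 h change was -0.22 and no longer passed (adjusted p = 0.0751), while the 72 h change was 0.48 and passed (adjusted p = 0.00176). Its 72 h change also passed without 24 h replicate 3 or 72 h replicate 2 (adjusted p from 0.0146 to 0.042) and with only the serum and 72 h libraries fitted (adjusted p = 0.0476).

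Between 24 h and 72 h 9 of the 30 members differed, 7 higher and 2 lower, beside 31.6% of all tested genes (15.8% higher and 15.7% lower), so the count is near the background. The libraries of 8 lay wholly higher and of 3 wholly lower, beside 16.5% and 17.1%. All 5 elongation and desaturation genes were among the 7, with Elovl6 at 0.98 ± 0.17, Scd1 at 0.97 ± 0.12, Fads2 at 0.78 ± 0.16, Scd2 at 0.62 ± 0.18 and Fads1 at 0.40 ± 0.11. The sterol genes Ebp (0.95 ± 0.13) and Hsd17b7 (0.38 ± 0.11) rose as well. Dhcr7 fell by 0.59 (SE 0.11) and Mvd by 0.45 (SE 0.13). The count rested on single libraries, since it was 17 without 24 h replicate 3 (9 higher and 8 lower, beside 54.3% of all tested genes called) and 5 without 72 h replicate 1 (4 higher and 1 lower, beside 19%). In both fits the share of the members was near that of all tested genes. Left-out libraries of the 2 times also ended the calls of Mvd (24 h replicate 1 or 2, 72 h replicate 1 or 3, adjusted p from 0.0616 to 0.108) and Scd2 (the same libraries, 0.0608 to 0.0856). They ended those of Hsd17b7 (24 h replicate 2, 72 h replicate 1 or 3, adjusted p from 0.072 to 0.1) and Fads1 (24 h or 72 h replicate 1, 0.0607 to 0.0669). The same 4 genes lost the call with only the 24 h and 72 h libraries fitted (adjusted p from 0.0991 to 0.136), which left 5 of the 30 beside 12.9% of all tested genes. With the span trend removed Mvd also lost it (-0.25, adjusted p = 0.0923). By group means, 13 members were highest at 24 h and 12 at 72 h. Of the 17 enzymes of sterol synthesis 12 were highest at 24 h, whereas 4 of the 5 elongation and desaturation genes were highest at 72 h, a description with no test. Of the 12 only Dhcr7 and Mvd were called lower at 72 h than at 24 h. Under quantile normalization Fdps (0.01) and Fdft1 (0.06) were slightly higher at 72 h than at 24 h, as was Sc5d (0.06) with the span trend removed. No share of all tested genes stands beside these counts.

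The levels were reordered. In serum the highest means of the 30 were those of Acly (6.28 ± 0.07), Fasn (5.95 ± 0.21), Scd2 (5.74 ± 0.19) and Hmgcs1 (5.63 ± 0.04). The libraries of Acly lay above those of the next gene, while those of Fasn, Scd2 and Hmgcs1 overlapped in turn. At 72 h Scd2 led with 7.10 ± 0.26, followed by Fdps (6.73 ± 0.30), Hmgcs1 (6.59 ± 0.18) and Acly (6.27 ± 0.09), and among these 4 only the step from Hmgcs1 to Acly was without overlap. Acly overlapped with Scd1, the next. Scd1 moved from place 17 to place 5 and Insig1 from 11 to 6, while Acaca moved from 13 to 27.

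Letters before the gene starts were read because most members rose. RefSeq windows of GRCm38.p6 held the 250 bases before the start for 23 of the 30 members. The 4 stretches below are shown for the member with the SREBP motif (Hmgcs1), for 2 genes with large rises (Insig1 and Fads2) and for a gene that fell (Fasn, chosen after its values were seen). The window of Msmo1 is not shown, since it lies mostly within the gene as the table gives it. Each is written 5′ to 3′ and ends at the RefSeq start, except Insig1, which ends before the start given in the expression table. The table's starts of Hmgcs1 and Fasn lie 111 and 369 bases further downstream. Capitals mark, on either strand, the SREBP motif TCACNCCAC, the NF-Y box CCAAT, the Sp1 box GGGCGG and the E-box CACGTG.
Hmgcs1 (chr13:119690101-119690350, plus strand): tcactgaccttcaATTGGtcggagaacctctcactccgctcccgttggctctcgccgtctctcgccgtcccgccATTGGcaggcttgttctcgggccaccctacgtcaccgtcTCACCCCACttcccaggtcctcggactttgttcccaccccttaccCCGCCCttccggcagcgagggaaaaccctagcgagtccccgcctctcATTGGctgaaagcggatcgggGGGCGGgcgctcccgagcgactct
Insig1 (chr5:28071162-28071362, plus strand): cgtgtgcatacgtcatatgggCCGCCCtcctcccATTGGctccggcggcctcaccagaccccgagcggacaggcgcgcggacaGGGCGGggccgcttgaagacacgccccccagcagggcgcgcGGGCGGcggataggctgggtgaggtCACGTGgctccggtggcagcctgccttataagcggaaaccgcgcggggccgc
Fads2 (chr19:10101504-10101753, minus strand): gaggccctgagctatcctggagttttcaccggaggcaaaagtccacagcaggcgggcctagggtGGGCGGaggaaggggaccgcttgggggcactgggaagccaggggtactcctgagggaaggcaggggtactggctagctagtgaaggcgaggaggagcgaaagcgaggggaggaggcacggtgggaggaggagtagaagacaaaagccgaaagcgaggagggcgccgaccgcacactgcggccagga
Fasn (chr11:120824548-120824797, minus strand): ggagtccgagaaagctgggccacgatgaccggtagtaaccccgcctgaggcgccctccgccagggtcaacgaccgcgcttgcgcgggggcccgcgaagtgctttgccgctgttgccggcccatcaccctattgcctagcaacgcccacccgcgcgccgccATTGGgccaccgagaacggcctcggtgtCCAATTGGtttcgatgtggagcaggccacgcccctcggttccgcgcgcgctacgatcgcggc

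In Hmgcs1 the SREBP motif begins 137 bases before the start, between NF-Y boxes at 176 and 45 bases. Insig1 holds 3 Sp1 boxes, 1 NF-Y box and 1 E-box, Fads2 1 Sp1 box, and Fasn 3 NF-Y boxes, of which the pair at 62 and 59 bases overlap. A gene counted once, when any of its windows matched, and Dhcr7, Srebf1 and Pmvk had several windows. Some windows lay far from the table's start, such as that of Acaca, 65766 bases away. The SREBP motif was present in 1 of the 23 members with a window (4.35%). It was present in 1.22% of the 27025 genes with a window and 1.32% of the 8329 of them that were tested. The NF-Y box was present in 18 of 23 (78.3%, beside 37.5% and 41.7%), the Sp1 box in 19 (82.6%, beside 35.4% and 66.2%) and the E-box in 4 (17.4%, beside 6.86% and 10.5%). A match is a run of letters and was not tested as a binding site.

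Lipid genes outside the 30 members were read from 6 lists of 57 genes, of which 54 were tested. The lists were chosen with earlier results of these data known, so their counts are a description and no separate support. At 72 h 26 of the 54 rose and 7 fell, beside 25.7% and 26.5% of all tested genes. Without serum replicate 3 those that fell numbered 4, in a fit with 44.4% of all tested genes called (22.4% higher). The counts by list below stand beside the same shares. Of 17 other genes of fatty acid and glycerolipid synthesis, 11 rose and 3 fell (median 1.06). The 3 were Gpam, a glycerol phosphate acyltransferase, at -0.97, Acsl4, an acyl-CoA synthetase, at -0.91 and Dgat1, which makes triglyceride, at -0.32. These 3 and Abca1, Abcg1, Mylip, Soat1, Nus1 and Scap below were named after their values were seen. Thrsp, a protein tied to lipogenesis, stood at -1.78, -4.32 and -2.06 in serum and at 1.41, 1.34 and 1.16 at 72 h, and Elovl7, an elongase, at -1.39, -0.82 and -1.26 and at 1.51, 1.56 and 1.53. Neither gene's serum and 72 h libraries overlapped, and 1 serum library of Thrsp lay far below the other two. The rises were 4.02 ± 0.60 and 2.69 ± 0.16. Thrsp passed the filter on low values only through 24 h and 72 h, and Elovl7 only through libraries in 2i.

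Of 7 tested genes of sterol efflux, uptake and the LXR receptors, 4 rose and 1 fell. The latter was Abca1, an exporter of cellular cholesterol, which stood at 1.57, 1.65 and 1.75 in serum, at -1.07, -1.04 and -0.98 at 24 h and at 1.22, 0.43 and 1.36 at 72 h. It fell by 2.69 at 24 h (SE 0.21, adjusted p = 1.55e-06), the largest fall of the 54 at that time, and by 0.66 at 72 h (SE 0.21, adjusted p = 0.0189). Abca1 spans 129109 bp, and its 24 h fall with the span trend removed is not given here. Vldlr, a receptor for lipoproteins rich in triglyceride, moved from -3.32, -2.90 and -2.17 in serum to 0.39, 0.34 and 0.39 at 72 h, a rise of 3.17 ± 0.25, and passed the filter only through 24 h and 72 h. Scarb1, the receptor for high-density lipoprotein, rose by 2.06 ± 0.13. The list's other called genes, Mylip and Abcg1, rose by 1.46 ± 0.17 and 0.49 ± 0.17 (adjusted p = 0.0292 for Abcg1). Of 5 genes of other sterol steps and storage 3 rose and 1 fell (Soat1, which esterifies cholesterol, by 0.72), with Tm7sf2, a sterol reductase, at 1.67 ± 0.13 and Nceh1, which hydrolyses cholesterol esters, at 1.17 ± 0.11. The isoprenoid branch, which draws on the same farnesyl pyrophosphate, had a median of -0.04, with 1 of 9 genes higher (Coq2 of coenzyme Q synthesis, 1.05 ± 0.14) and 2 lower (Pggt1b, a subunit of a prenyltransferase, fell by 0.69, and Nus1 of dolichol synthesis fell by 0.34).

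Of the 6 genes that process SREBP, only Mbtps1 was called at 72 h, a protease that cuts the SREBP precursors, with a rise of 0.35 ± 0.10 (adjusted p = 0.0101). At 24 h only Scap was called, the escort of the SREBP precursors, which fell by 0.49 (SE 0.14, adjusted p = 0.00962) and was at -0.14 ± 0.14 at 72 h, and 1 of 6 called stands beside 63.3% of all tested genes at 24 h. Of 10 tested genes of fatty acid oxidation 6 rose and 0 fell, with no gene lower at an unadjusted limma p under 0.05 either. Cpt1a, which carries long-chain fatty acids toward the mitochondrion, stood at 2.66, 2.58 and 2.86 in serum, at 4.15, 4.16 and 4.38 at 6 h and at 5.20, 4.85 and 5.12 at 72 h, a rise of 2.35 ± 0.16. Acadm, a dehydrogenase of the oxidation cycle, rose by 0.96 ± 0.11. Genes of synthesis and of oxidation were thus both among those that rose.

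**Figure D4:**
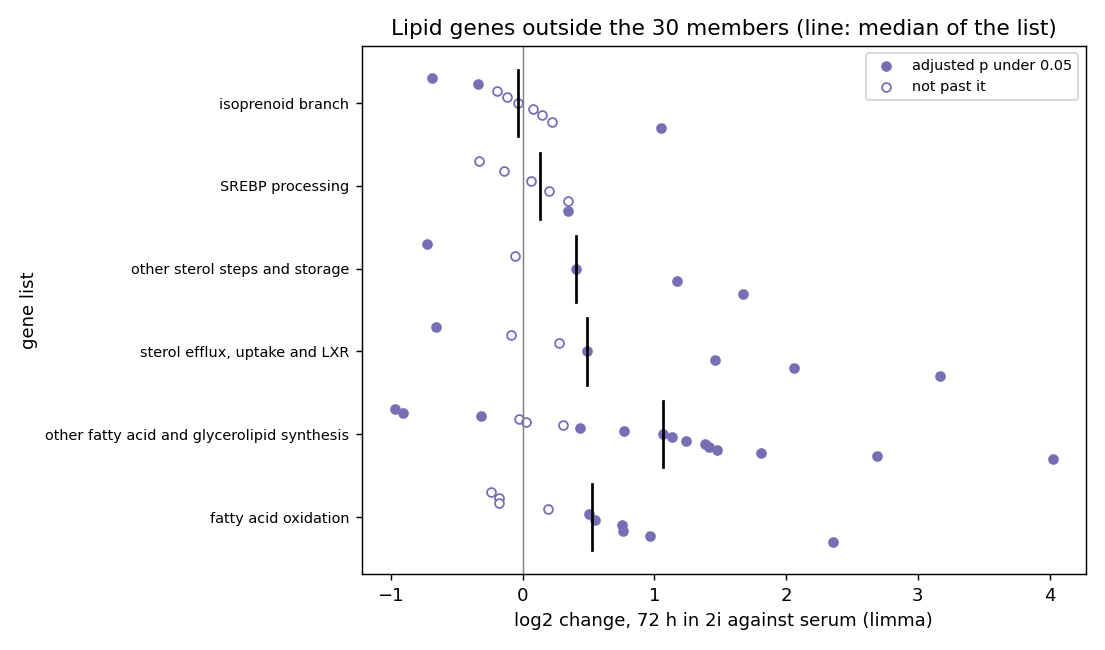
Fitted log2 change at 72 h against serum (x axis) of the 54 tested lipid genes outside the members, by list (y axis), with filled points for an adjusted p under 0.05 and a line at the median of each list. The points spread from -0.97 to 4.02, and the highest median, 1.06, is that of other fatty acid and glycerolipid synthesis.

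H3K9me2 is a mark of repressed chromatin. It was read over gene spans in 2 bound libraries each of serum, 24 h and LT2i, with 1 input each and no RNA from LT2i. The measure was log2 of the mean bound reads per 2-kb bin plus 1. Bound libraries held 14396552 to 19279328 reads in bins. 28 members were tested among 20944 spans with 10 or more bound reads on average over the 6 bound libraries, and Fdps and Ebp held fewer. In LT2i 20 of the 28 were lower than in serum and 0 higher, beside 55.8% of all spans lower and 6.91% higher, and the median change was -1.26 against -0.61 over all spans. In serum the median of log2 bound minus input was -1.59 over the members and -0.65 over all spans, so the members began lower. The members and all spans were not matched for this serum level, and its part in the larger fall was not tested. At 24 h no span was called by limma, in the members or elsewhere, and an unadjusted p was under 0.05 for 6 of the 28 and 2535 of the 20944.

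Scd1 had the largest fall, from 3.75 and 3.78 in the 2 serum libraries to 3.19 and 3.03 at 24 h and 1.19 and 1.31 in LT2i, or by 2.51 (SE 0.14, adjusted p = 0.0011). Its values at 24 h lay between the other two conditions. Fads2 stood at 4.39 and 4.23 in serum and at 2.20 and 2.45 in LT2i. Fasn stood at 3.04 and 2.74 in serum, at 3.17 and 2.92 at 24 h, when its RNA was lower, and at 1.63 and 1.60 in LT2i, where the mark was lower. Insig1 stood at 2.89 and 2.94 in serum and at 2.07 and 1.99 in LT2i (fell by 0.88, SE 0.14). Cyp51 was at -0.15 ± 0.13 and Nsdhl at -0.03 ± 0.19. Idi1, the one tested member with a change above 0, was at 0.37 ± 0.19, and none of the 3 passed the threshold. Their RNA was called higher at 24 h and 72 h, while no RNA came from LT2i, and a link between mark and RNA was not tested. Over 3 bins round the gene start in place of the span, 18 members were tested, of which 5 were lower and 0 higher. Of the 16515 starts 30.9% were lower and 6.68% higher, so the count of lower members is near the background. An unadjusted limma p was under 0.05 for 9 of the 18, a count in either direction with no share over all starts beside it.

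**Figure D5:**
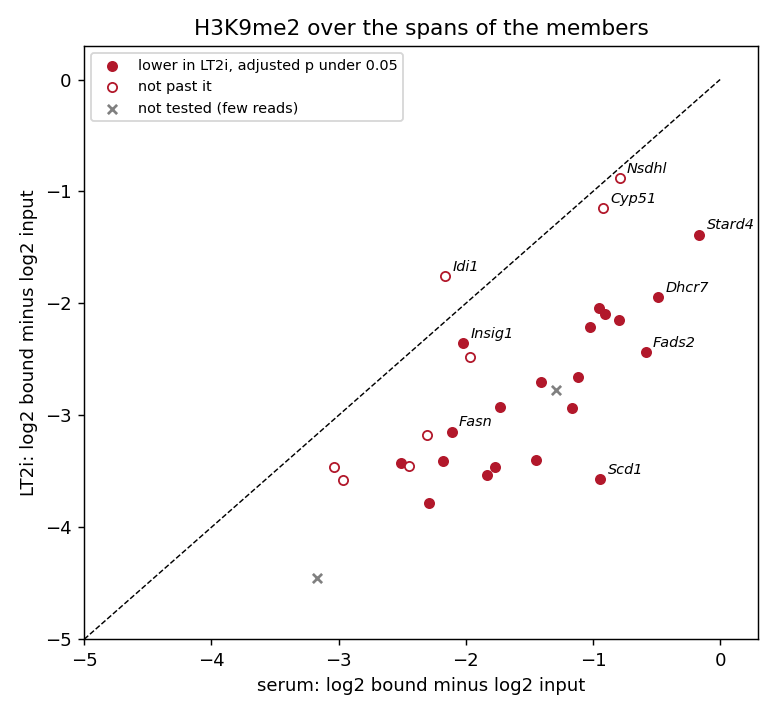
H3K9me2 over the span of each member as log2 bound minus log2 input, in serum (x axis) and LT2i (y axis), with a point per gene from the mean of 2 bound libraries and 1 input. Filled points were lower in LT2i by limma and the dashed line marks equal values. All members but Idi1 lie below the line, and Scd1 lies far below it.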

How the data were processed

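Sample groups and replicate numbers came from the labels. The study calls the replicates of its expression time course biological, and for the ChIP-seq libraries nothing read here says so, so that their p-values may measure technical spread only. The deposited RNA-seq table holds a log2 value for each gene after correction for length and depth, with a shared 75th percentile (2.51 in all 12 libraries) and a floor where a gene has no reads. Relative to serum replicate 1 the floors stood from -0.29 to 0.27, and the totals of reads cannot be had. The deposited ChIP-seq table holds log2 reads in 2-kb bins on a scale common to the libraries. The submitters' processing notes name Trim Galore 0.3.5, TopHat2 2.0.11, Bismark 0.12.3 and Bowtie2, with no role given for each. Gene coordinates are those of GRCm38, and the RNA kit does not keep strand.

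The 12 RNA libraries entered one limma fit (lmFit, contrasts.fit and eBayes with trend, limma 3.58.1 in R 4.3.3), with Benjamini-Hochberg adjustment over 12306 genes. Scripts were tested on simulated data. ChIP-seq bins were averaged on the linear scale over each gene span, 1 was added, and log2 was fitted by limma over the 6 bound libraries. Bisulfite libraries were not analysed here, since the reference used here is of another build than theirs, NCBIM37. Promoter windows were taken from RefSeq (GRCm38.p6). None was given for Fdft1, Scd2, Scd1, Fdps, Fads1, Stard4 or Sqle.

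Deviations from the group means correlated between libraries of the same replicate number by 0.16 to 0.54 for serum with 6 h. For serum with 24 h they correlated by 0.11 to 0.47. Each was over a set cutoff of 0.1, so these comparisons were read as possibly paired, from the data alone. The labels name no shared batch. Serum replicate 2 correlated more with another number at both times (0.25 against 0.16 at 6 h, 0.34 against 0.11 at 24 h), so pairing is not settled. The fit without the block remained the one reported, and results with the block are given beside it. Alternatives covered normalization, filters, the log scale, the variance model, the samples fitted, the threshold, gene span, the replicate block and leaving out each library. The members and lists were chosen with earlier results of these data known. Text names all members and, of each other list of lipid genes, the 2 called genes with the largest change at 72 h, or the 1 called gene for SREBP processing. Gpam, Acsl4, Dgat1, Abca1, Abcg1, Mylip, Soat1, Nus1 and Scap were named besides, after their values were seen.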

Additional observations from a re-analysis of the deposited data

Results flagged for a closer look

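For 9 members the change from serum differed between 24 h and 72 h by a limma test of the difference itself, beside 31.6% of all tested genes, a share near that of the members, and no explanation was weighed. The 72 h minus 24 h difference on the log2 scale was 0.98 for Elovl6, 0.97 for Scd1, 0.95 for Ebp, 0.78 for Fads2, 0.62 for Scd2, 0.40 for Fads1 and 0.38 for Hsd17b7, all higher at 72 h. It was -0.59 for Dhcr7 and -0.45 for Mvd, both lower at 72 h. Elovl6 lay below serum in all 3 libraries at 24 h and above it in all 3 at 72 h, but its 72 h change of 0.37 did not pass (adjusted p = 0.0913) and its 24 h fall was lost with the gene span trend removed (-0.22, adjusted p = 0.0751), while in that setting its 72 h change was 0.48 and passed (adjusted p = 0.00176). Without 72 h replicate 1 the differences past the threshold numbered 5 (beside 19% of all tested genes), and without 24 h replicate 3, the library that correlated least with its group, they numbered 17 (beside 54.3%). Groups of 3 libraries were not searched for single outlying samples.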

How the results depend on the processing

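Of 2516 values of single members under the alternatives other than the 2-fold rule, 0 reversed a called direction, 15 changed sign with no call in either fit, 47 lost and 53 gained a call. With only the compared groups fitted, 19 members rose at 6 h, 2 fell at 72 h, and 5 differed between 24 h and 72 h (4 higher, 1 lower). In those fits 16% of all tested genes rose at 6 h, 53.7% were called at 72 h (26.6% higher) and 12.9% between 24 h and 72 h. With a 2-fold change also required, 3 rose at 6 h, 18 were called at 24 h (16 higher), 17 at 72 h (0 lower) and 0 between the later times. Of the other lipid genes 16 rose and 0 fell at 72 h. Rises of 2-fold or more were called for 3%, 15.1% and 11.4% of all tested genes at 6, 24 and 72 h, and no such share was taken for falls. On the log2(linear value + 1) scale medians were 0.88 at 24 h and 0.95 at 72 h. They were 1.04 at 72 h with values of 1 or more required, and 0.99 at 24 h with the gene span trend removed, which left 11 higher and 1 lower between 24 h and 72 h (31.4% of all tested genes called). H3K9me2 over 3 bins at the start gave 5 lower members of 18 tested, beside 30.9% of all starts. The cause of these shifts was not tested.

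Leaving out 1 library gave 9 to 13 calls at 6 h, 27 to 28 at 24 h (24 to 25 higher), 25 to 29 at 72 h (24 to 27 higher, 1 to 2 lower) and 5 to 17 between 24 h and 72 h (4 to 9 higher, 1 to 8 lower). Beside these, 9.85% to 19.8%, 54.2% to 71.8%, 44.3% to 59.6% and 19% to 54.3% of all tested genes were called. Leaving out 1 library also gave 24 to 26 higher and 4 to 8 lower other lipid genes at 72 h, beside 21.4% to 29.4% of all tested genes higher. It gave 19 to 21 members lower in H3K9me2, beside 55.8% of all spans lower in the main fit, and the share without a library is not given here. The median changes of the members were 0.33 to 0.42, 1.03 to 1.12 and 1.10 to 1.17. With the replicate number as a block, Mvd and Lss gained the call at 6 h and no other member's call changed at 6 h or 24 h. The block gave 29 calls at 72 h (2 lower), with Elovl6, Fasn and Lss gained, and 14 between 24 h and 72 h (6 lower), beside 60.9% and 47.1% of all tested genes. Same-number correlations there were 0.05 to 0.40 for serum with 72 h and -0.25 to 0.81 for 24 h with 72 h, so 1 pair of each was under 0.1 and these groups were read as sharing a number only. Without the row Sc4mol, an alternative chosen after seeing the data, calls numbered 11, 27, 25 and 9. The shares of all tested genes called were 15.6%, 63.3%, 52.2% and 31.6%. The unknown read totals are a limit for the low genes, such as Acss2 and Hsd17b7.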
